A study of Homo sapiens with 6 samples.

Results

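The genes described here mark the epithelial and the mesenchymal states of a cell. They are CDH1 and EPCAM on the epithelial side, VIM, FN1 and CDH2 on the mesenchymal side, and the transcription factors TWIST1, ZEB1, ZEB2, SNAI1 and SNAI2. They were taken by name, as every probe set that the array's platform annotation assigns to one of these symbols, and this gave 26 probe sets for 10 genes out of 54613 probe sets for 21357 named genes. None of the 26 names a further gene. The RNA came from HCT116, a human colorectal carcinoma line, in 2 groups of 3 arrays. In the CDK4/6 siRNA group the cells received a pool of siRNAs against CDK4 and an siRNA against CDK6 at 30 nM each, and in the control siRNA group they received a non-targeting pool and a negative control siRNA at 30 nM each. Both groups were thus transfected with RNAiMAX lipid, and total RNA was taken 96 h later. All values come from 1 cell line, and the labels call the arrays biological replicates without saying whether they are separate cultures, so a p-value here reflects only how far these arrays scatter, which may be technical.

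Epithelial cells are held together by junctions in which E-cadherin, the product of CDH1, binds its copy on the neighbouring cell and is tied to actin through catenins. In an epithelial-mesenchymal transition this adhesion is lost, and vimentin filaments, fibronectin and N-cadherin appear. The SNAI, ZEB and TWIST factors are the classic drivers, and the SNAI and ZEB proteins bind E-box motifs in the CDH1 promoter and repress it. In carcinoma lines the states are often mixed, with markers of both sides in the same culture.

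Levels are given as deposited, in log2 units after RMA, and each change is CDK4/6 siRNA minus control siRNA. A probe set was called at a limma adjusted p under 0.05, with Benjamini-Hochberg adjustment over all 54613 probe sets. Array medians lay between 5.36 and 5.39, and arrays correlated at 0.997 to 0.998 within groups and 0.991 to 0.994 between them. Both genes aimed at by the siRNAs fell without overlap. CDK4 averaged 9.52 ± 0.12 in CDK4/6 siRNA cells and 10.21 ± 0.12 in control cells (SD, n = 3 each), a fall of 0.69 to 62.2% of the control level (limma adjusted p = 0.00069). CDK6, on the brightest of its probe sets, averaged 8.84 ± 0.04 in CDK4/6 siRNA cells and 10.39 ± 0.04 in control cells, a fall of 1.56 (limma adjusted p = 1.45e-05), and 6 of its 7 probe sets fell. The epithelial keratin KRT18 was bright, at a mean level of 13.27 (99.6th percentile of all probe sets). The 10 measured markers of colon epithelium, among them CDX2 and VIL1, had mean levels of 4.19 to 6.64. That range overlaps the 4.28 to 7.13 seen for 9 genes restricted to other organs, such as ALB and MYH7, of which by limma 0 rose and 1 fell (HBB, by 0.23, adjusted p = 0.033; 0 rose and 2 fell at an unadjusted p under 0.05). With the arrays scaled to the hybridisation spike-ins 1 of these 9 rose and 0 fell, so the call of HBB was lost. Levels of different probe sets also depend on their probes, so such ranges are only a guide.

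In the CDK4/6 siRNA cells the mesenchymal genes FN1 and VIM, the transcription factors TWIST1 and ZEB1, and the epithelial gene CDH1 were lower, and no member was higher. Of the 26 probe sets 9 fell, from 5 of the 10 genes, where 8.17% of all probe sets fell. By limma 0 rose, where 8.86% of all probe sets rose, and 0 of the 26 were higher even at an unadjusted p under 0.05. EPCAM, CDH2, ZEB2, SNAI1 and SNAI2 had no probe set past the threshold. In 11 of the 26 the groups did not overlap, against 32.6% of all probe sets, and in 10 of these the CDK4/6 siRNA arrays were the lower ones, against 16.5%. The median change was -0.11 over the 26 probe sets and -0.0040 over all probe sets.

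**Figure D1:**
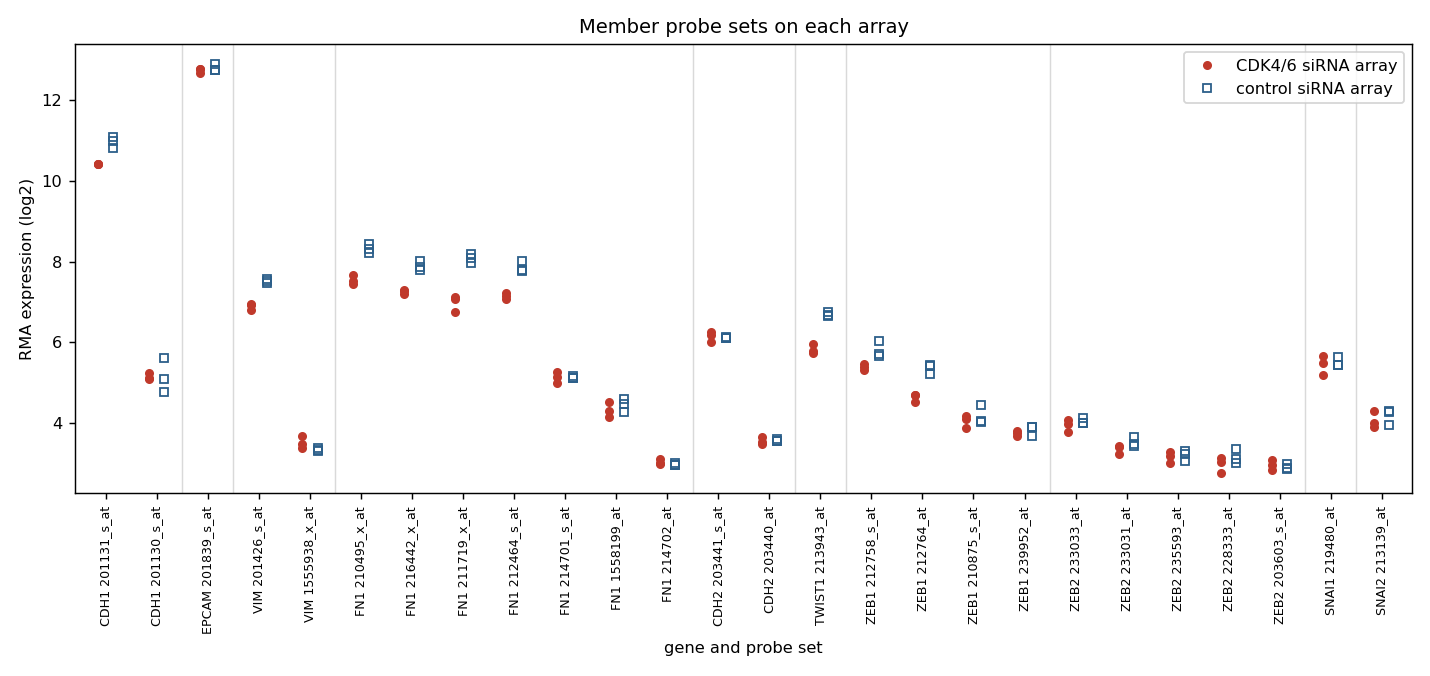
RMA expression (log2) of the 26 member probe sets, with a filled circle for each CDK4/6 siRNA array and an open square for each control siRNA array, and lines between genes. The circles lie below all squares for the bright CDH1 and VIM probe sets, 4 FN1 probe sets, TWIST1 and 2 ZEB1 probe sets, while EPCAM, CDH2, SNAI1 and SNAI2 overlap.

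CDH1, the adhesion molecule of epithelial junctions, has 2 probe sets. On 201131_s_at the CDK4/6 siRNA arrays gave 10.42, 10.43 and 10.42, against 10.81, 10.98 and 11.10 on the control arrays. All CDK4/6 siRNA values were below all control values, and they were almost identical to each other (SD 0.0018) while the controls were spread (SD 0.14). CDH1 fell by 0.54 on the log2 scale (SE 0.079, 95% interval -0.72 to -0.36), to 68.8% of the control level, with a limma adjusted p of 0.00155. The other CDH1 probe set, 201130_s_at, gave 5.10, 5.11 and 5.23 in CDK4/6 siRNA cells and 4.75, 5.10 and 5.61 in control cells. Here the groups overlapped, and the limma change was -0.0069 (95% interval -0.40 to 0.39, adjusted p = 0.988). A fall of 0.54, as on the first probe set, lies outside this wide interval. The 2 intervals share only the values from -0.40 to -0.36. It was -0.21 without control replicate 1 and 0.22 without control replicate 3, with no call in either case. The call of CDH1 was lost with the mean of both probe sets (-0.27, limma adjusted p = 0.145).

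EPCAM, a surface glycoprotein of epithelial cells used to capture carcinoma cells, was the brightest member at the 99.4th percentile. Its single probe set read 12.68, 12.78 and 12.76 in CDK4/6 siRNA cells and 12.75, 12.75 and 12.89 in control cells. The groups overlapped. The difference was -0.059 (95% interval -0.21 to 0.093, limma adjusted p = 0.656), so a fall as large as that of CDH1 lies outside its interval.

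FN1 encodes fibronectin, a matrix glycoprotein that cells bind through integrins, and it held the largest change among the members. Probe set 211719_x_at read 7.08, 7.13 and 6.75 in CDK4/6 siRNA cells and 7.97, 8.09 and 8.20 in control cells. The groups lay well apart, and this was the only member probe set with at least a 2-fold change: it fell by 1.10 (SE 0.106, 95% interval -1.34 to -0.86), to 46.5% of the control level (limma adjusted p = 0.000236). Probe set 210495_x_at read 7.67, 7.51 and 7.45 in CDK4/6 siRNA cells and 8.30, 8.21 and 8.43 in control cells, a fall of 0.77 (SE 0.083). Probe set 212464_s_at read 7.13, 7.07 and 7.22 in CDK4/6 siRNA cells and 7.79, 7.76 and 8.025 in control cells, a fall of 0.72 (SE 0.084). Probe set 216442_x_at read 7.20, 7.28 and 7.27 in CDK4/6 siRNA cells and 7.79, 7.88 and 8.005 in control cells, a fall of 0.64 (SE 0.072). These 4 probe sets fell together, with no overlap on any of them and adjusted p of at most 0.000541. They measure the same transcripts in the same arrays and are not separate evidence. Their names end in _x_at or _s_at, suffixes with which the array maker marks probes that may also match other sequences or that are shared between transcripts.

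The other 3 FN1 probe sets were dim and did not pass. Probe set 214701_s_at averaged 5.12 ± 0.14 in CDK4/6 siRNA cells and 5.13 ± 0.03 in control cells. The 2 with a plain name, 1558199_at and 214702_at, changed by -0.12 and 0.062 with overlapping groups (limma adjusted p = 0.557 and 0.621). With the mean of all 7 probe sets in place of the brightest, FN1 fell by 0.47 (limma adjusted p = 0.000338). On probe sets with a plain name alone, FN1 had no call.

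VIM encodes vimentin, the intermediate filament of mesenchymal cells. Probe set 201426_s_at read 6.80, 6.945 and 6.93 in CDK4/6 siRNA cells and 7.52, 7.57 and 7.47 in control cells. The gap between the groups was several times the spread within either, and VIM fell by 0.63 (SE 0.067, 95% interval -0.78 to -0.48), to 64.7% of the control level (limma adjusted p = 0.000357). Its mean level of 7.21 is just above the range of the genes restricted to other organs, which ends at 7.13. The mean of its CDK4/6 siRNA arrays, 6.89, is inside that range. The second, 1555938_x_at, was at the 7.1th percentile and ran the other way, with 3.66, 3.47 and 3.38 in CDK4/6 siRNA cells and 3.37, 3.30 and 3.32 in control cells. Its groups did not overlap, but the difference of 0.18 (95% interval -0.0037 to 0.36) missed the threshold with an adjusted p of 0.189. It passed as higher, at 0.30 (adjusted p = 0.0245), with the arrays scaled to the hybridisation spike-ins. With the mean of both probe sets VIM fell by 0.23 (adjusted p = 0.00789).

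CDH2 encodes N-cadherin, which replaces E-cadherin in mesenchymal and neural cells. Its brighter probe set, 203441_s_at, read 6.26, 6.18 and 6.01 in CDK4/6 siRNA cells and 6.09, 6.11 and 6.12 in control cells. The 3 controls lay between the CDK4/6 siRNA values, and the change was 0.038 (95% interval -0.13 to 0.21, limma adjusted p = 0.818). The dimmer 203440_at changed by -0.017 (95% interval -0.17 to 0.14). Of the mesenchymal structural genes, then, 5 of 11 probe sets fell, where 8.17% of all probe sets fell. Of these, 4 are FN1 probe sets, which are not separate evidence, and the last is of VIM. The signal of CDH2 showed no change of their size on either probe set. The mean level of 203441_s_at, 6.13, is inside the range of the genes restricted to other organs, and that of 203440_at, 3.56, is below it. A change of CDH2 RNA could therefore be understated.

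TWIST1 is a basic helix-loop-helix factor that can repress CDH1. It is measured by 1 probe set with a plain name, 213943_at, which read 5.96, 5.72 and 5.78 in CDK4/6 siRNA cells and 6.68, 6.64 and 6.75 in control cells. The highest CDK4/6 siRNA array was still well below the lowest control. TWIST1 fell by 0.87 (SE 0.078, 95% interval -1.04 to -0.69), to 54.9% of the control level, and its limma adjusted p of 0.000184 was the smallest among the members. Its mean level of 6.26 is inside the range of the genes restricted to other organs.

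ZEB1, a zinc finger and homeobox repressor, has 4 probe sets. Probe set 212764_at read 4.70, 4.52 and 4.69 in CDK4/6 siRNA cells and 5.21, 5.40 and 5.43 in control cells. The groups were apart by several times their spread, a fall of 0.71 (SE 0.083, 95% interval -0.90 to -0.53) to 60.9% of the control level (limma adjusted p = 0.000526). Probe set 212758_s_at read 5.39, 5.47 and 5.30 in CDK4/6 siRNA cells and 5.72, 5.66 and 6.03 in control cells, a fall of 0.42 (SE 0.101, adjusted p = 0.0197). This second call is the least firm of the 9: it was lost without CDK4/6 siRNA replicate 1 (-0.415, adjusted p = 0.0525) or replicate 3 (-0.37, adjusted p = 0.072) and with spike-in scaling (-0.29, adjusted p = 0.0813), and over all alternatives its adjusted p ran from 0.0108 to 0.145. The dim probe sets 210875_s_at and 239952_at changed by -0.13 and -0.078 with overlapping groups. Both called ZEB1 probe sets have mean levels, 5.59 and 4.99, inside the range of the genes restricted to other organs.

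ZEB2, the close relative of ZEB1, was listed at mean levels of 2.93 to 3.98 on all 5 of its probe sets, from the 0.2th to the 20.9th percentile. Their changes ran from -0.17 to 0.050, and limma adjusted p from 0.227 to 0.796. On 1 of them, 233031_at, the groups did not overlap, with 3.39, 3.42 and 3.22 in CDK4/6 siRNA cells and 3.42, 3.64 and 3.47 in control cells. The gap there is the smallest that separates groups among the members, and it did not pass.

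SNAI1 and SNAI2 are zinc finger repressors of CDH1 with 1 probe set each, and neither separated the groups. SNAI1 on 219480_at read 5.47, 5.64 and 5.19 in CDK4/6 siRNA cells and 5.44, 5.44 and 5.63 in control cells, a difference of -0.068 (95% interval -0.32 to 0.19, limma adjusted p = 0.774). SNAI2 on 213139_at read 3.98, 3.90 and 4.28 in CDK4/6 siRNA cells and 4.26, 4.28 and 3.94 in control cells, a difference of -0.11 (95% interval -0.38 to 0.16, adjusted p = 0.65). In both genes the intervals of the signal leave out falls of the size of TWIST1 and also a fall as large as that of CDH1. The mean level of SNAI1, 5.47, is inside the range of the genes restricted to other organs, and that of SNAI2, 4.11, is below it. Changes near background understate changes in RNA, so a larger fall of either RNA could be hidden. Of the 12 probe sets of the 5 transcription factors, 3 fell, from TWIST1 and ZEB1, where 8.17% of all probe sets fell.

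**Figure D2:**
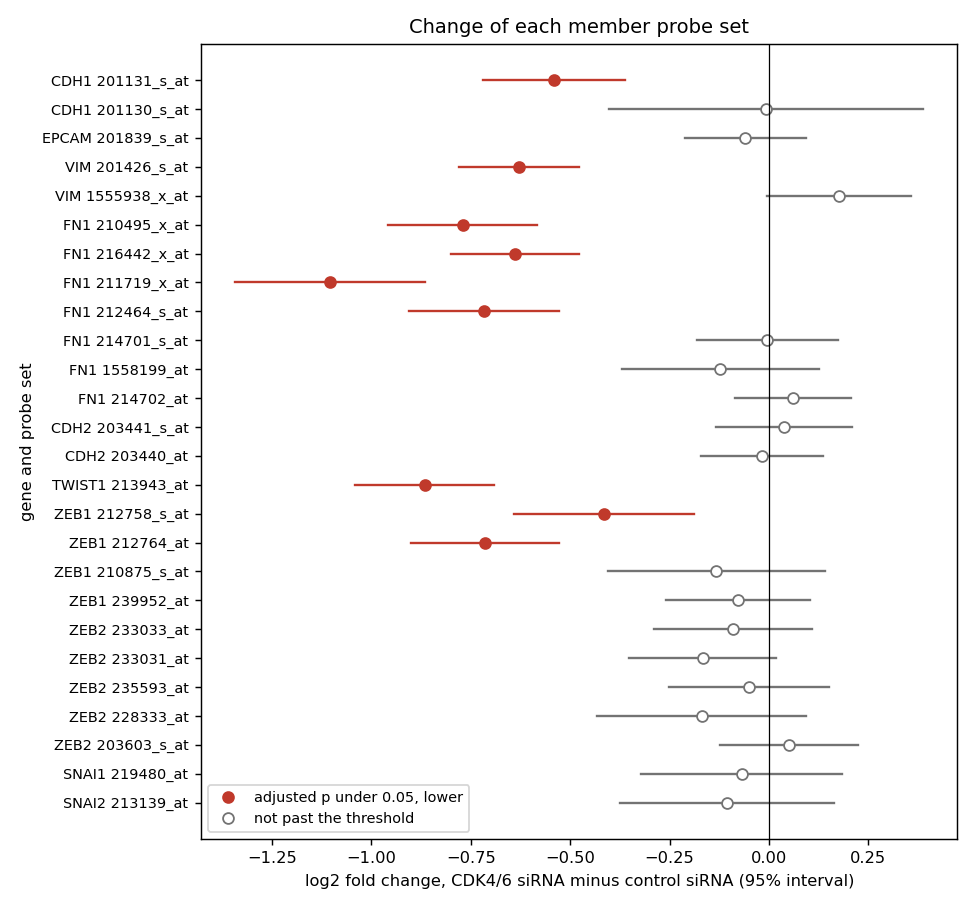
Log2 fold change of each member probe set, CDK4/6 siRNA minus control siRNA, with its 95% interval from limma. Filled red points passed the adjusted threshold, all 9 of them below 0, from -0.42 for ZEB1 to -1.10 for FN1, and the open grey points have intervals that include 0.

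Promoter sequence was at hand for 5 members, VIM, FN1, CDH2, ZEB1 and ZEB2, in RefSeq on GRCh38.p14, and CDH1, EPCAM, TWIST1, SNAI1 and SNAI2 had no entry. The 250 bases before the annotated start are shown for the 3 of these genes that fell, to let their promoters be compared. Capitals mark matches to any of 4 motifs on either strand: the E-box CACCTG of the SNAI and ZEB factors, the GC box GGGCGG of the SP1 family, CCAAT, and TGACGTCA, the cAMP response element. No matches to different motifs overlapped.
FN1, chr2:215436069-215436318, minus strand: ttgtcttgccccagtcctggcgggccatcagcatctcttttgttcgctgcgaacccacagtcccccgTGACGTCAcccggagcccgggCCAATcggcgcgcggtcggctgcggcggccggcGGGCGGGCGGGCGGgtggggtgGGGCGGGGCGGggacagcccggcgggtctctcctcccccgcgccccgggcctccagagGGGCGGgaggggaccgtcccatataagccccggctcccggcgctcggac
VIM, chr10:17227991-17228240, plus strand: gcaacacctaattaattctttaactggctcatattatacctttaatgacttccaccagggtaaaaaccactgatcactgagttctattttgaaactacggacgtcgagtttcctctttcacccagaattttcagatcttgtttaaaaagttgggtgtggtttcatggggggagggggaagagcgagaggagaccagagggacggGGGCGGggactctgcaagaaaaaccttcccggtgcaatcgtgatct
ZEB1, the most upstream of its 7 annotated starts, chr10:31318167-31318416, plus strand: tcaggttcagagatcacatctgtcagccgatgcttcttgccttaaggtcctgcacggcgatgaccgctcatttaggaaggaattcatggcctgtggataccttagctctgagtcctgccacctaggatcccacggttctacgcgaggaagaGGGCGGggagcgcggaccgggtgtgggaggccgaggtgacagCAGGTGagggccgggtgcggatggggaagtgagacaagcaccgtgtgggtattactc

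The FN1 window was the richest, with 6 GC boxes, 1 CCAAT, 1 cAMP response element 183 bases before the start and a GC content of 76.4%. The VIM window held 1 GC box at 46.0% GC. The E-box was found in 2 of the 12 windows of these members, both of ZEB1: 1 match in the window shown, 57 bases before the start, and 2 in the window of the third start. Over all 35116 promoter windows of the same length, 17.5% held CACCTG, 42.6% GGGCGG, 32.0% CCAAT and 1.65% TGACGTCA on either strand. No motif was common to the 3 windows shown except the GC box, which many promoters hold. A GC box also lay before the more upstream start of CDH2, which had no call, and was absent before the most downstream ZEB1 start. These matches describe the letters and say nothing of binding.

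Which member probe sets were called went with their level. All probe sets were ranked by mean level and divided into 4 equal bins. In the dimmest bin, up to a mean of 4.15, limma called 0 of 11 member probe sets (0 also at an unadjusted p under 0.05), where 2.08% of all were called. In the second bin 1 of 4 was called, where 5.48% of all were, in the third 3 of 5, where 19% of all were, and in the brightest 5 of 6, where 41.5% of all were. EPCAM was the uncalled member in the brightest bin, and ZEB1 212764_at the called one in the second. For CDH1, VIM, FN1 and ZEB1 the uncalled probe sets were dimmer than the called ones of the same gene, and the part of level in the disagreement between probe sets of a gene was not tested.

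**Figure D3:**
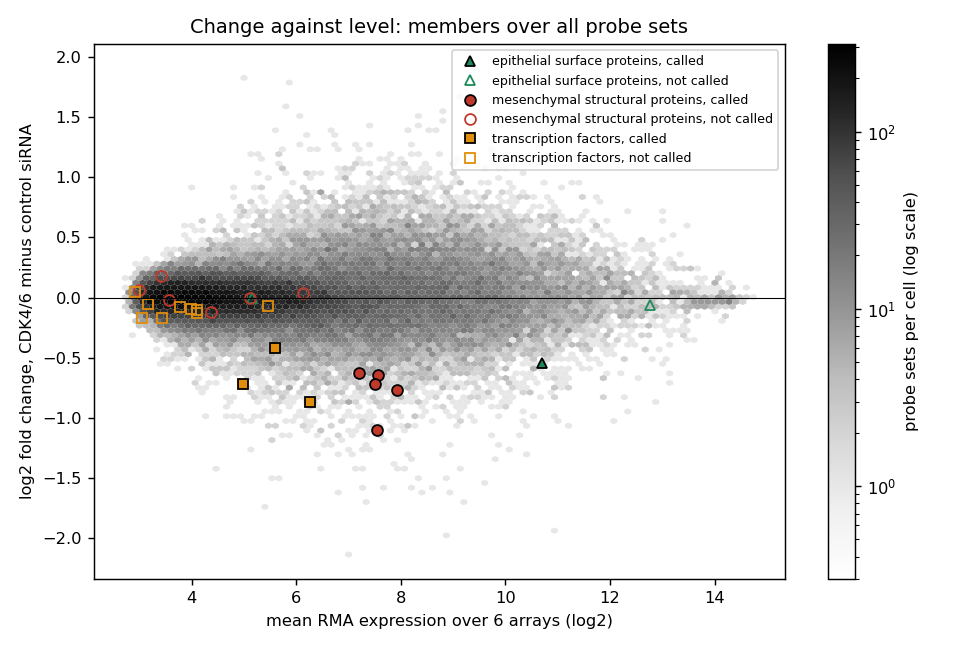
Log2 fold change (CDK4/6 siRNA minus control siRNA) against mean RMA expression over 6 arrays (log2), with all probe sets as grey cells whose shade gives their number on a log scale and the members as coloured symbols by role, filled where called. The called members lie below 0 at levels from 4.99 to 10.69, and the uncalled ones lie nearer to 0, most of them at low levels.

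Control replicate 3 was the highest of the control arrays in 16 of the 26 member probe sets (61.5%), against 32.7% of all probe sets. Without it all 9 calls remained. CDH1 then fell by 0.47 (limma adjusted p = 0.00704), TWIST1 by 0.84 and FN1 211719_x_at by 1.05, and ZEB1 212758_s_at fell by 0.30 (adjusted p = 0.0412). The hybridisation spike-ins were lower in CDK4/6 siRNA arrays, at a mean of 9.92 against 10.04 in control arrays. Scaling to them moved the median of all probe sets to 0.12 and that of the 26 to 0.0088, and 8 member probe sets were then still called lower. This scaling used 9 spike-in probe sets, on values that RMA had already equalised, so it cannot recover the RNA content of cells.

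**Figure D4:**
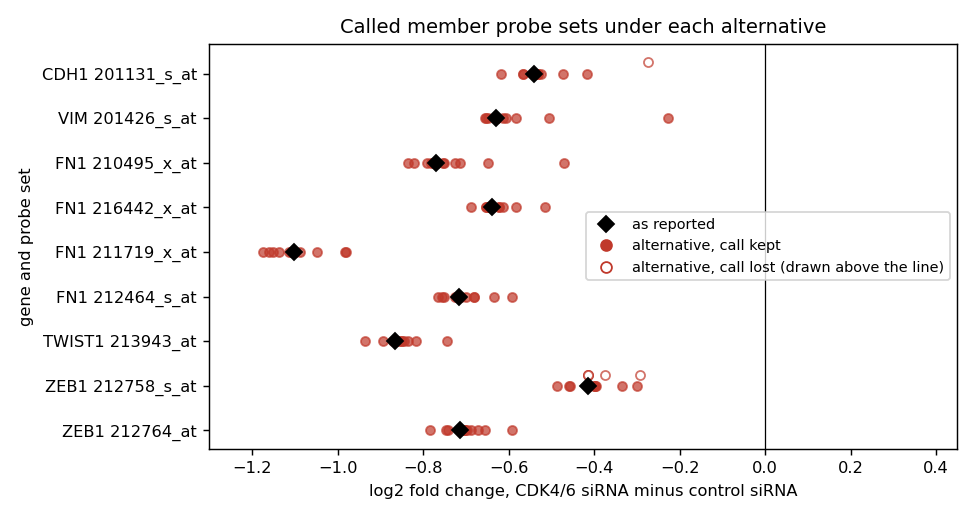
Log2 fold change (CDK4/6 siRNA minus control siRNA) of the 9 called member probe sets as reported (black diamonds) and under each alternative (circles, open and raised where the call was lost). All points lie below 0, and calls were lost once for CDH1, with the mean of its probe sets at -0.27, and under 5 alternatives for ZEB1 212758_s_at.

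Genes around the members went both ways. Each gene below stands on its brightest probe set with a single gene name, and on that footing 10.7% of 19775 genes fell and 12.0% rose, while 5 of the 10 members fell and 0 rose. The lists were written from general knowledge but, like the choice of members, with earlier results of these data known, so these counts are descriptions. Among 17 epithelial markers and junction genes 4 rose and 5 fell, with a median of -0.12, against -0.0011 over all genes. The simple-epithelium keratins KRT8 and KRT18 rose by 0.59 and 0.51, and the tight junction claudins CLDN4 and CLDN3 fell by 0.52 and 0.42. KRT19 (-0.063, limma adjusted p = 0.583) and CLDN7 (-0.087, adjusted p = 0.518), of the same 2 families, did not pass. CLDN4 and CLDN3 have a second probe set each that did not pass either, and the mean of the pair was -0.26 for CLDN4 and -0.29 for CLDN3. KRT8 and KRT18 rest on 1 probe set each. The names of these, like that of the called CLDN3 probe set, end in _x_at, so they may also match other sequences. With spike-in scaling the list had 4 higher and 4 lower and a median of 0.0078.

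The cadherin-catenin list holds partners through which CDH1 acts and related adhesion genes. By limma 0 of 12 rose and 1 fell, with 0 higher and 3 lower at an unadjusted p under 0.05, and the median was -0.0070. The gene that fell was CTNNA1, alpha-catenin, which links the complex to actin, by 0.24 (adjusted p = 0.0256). That call was lost with spike-in scaling (-0.12, adjusted p = 0.243) and on plain-name probe sets (0.025). The scaffold AFDN (-0.20), NECTIN2 (-0.22) and P-cadherin, CDH3 (0.12), did not pass.

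Among 11 epithelial regulators 3 rose and 3 fell (5 and 2 with spike-in scaling). KLF4 fell by 0.97 on its brightest probe set and by 0.82 on the other. The ETS factor EHF rose by 0.53, with 4 of 6 probe sets called, while the ETS factor ELF3 fell by 0.75 on 1 of 3 probe sets, a call lost with the mean of its probe sets (-0.16, limma adjusted p = 0.0699). The splicing regulator ESRP1 fell by 0.32 on its brightest probe set and 0.34 on the other, a call lost with spike-in scaling (-0.20, adjusted p = 0.0781).

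Of 27 mesenchymal structure and matrix genes 4 rose and 6 fell (6 and 3 with spike-in scaling), with a median of -0.016. LOXL2, which crosslinks collagen, fell by 0.83 on 1 of 4 probe sets, and COL1A1, a chain of type I collagen, by 0.49 on its brightest, with 2 of 5 called. The means over their probe sets were -0.22 for LOXL2 and -0.25 for COL1A1. THBS1, thrombospondin, and S100A4, a calcium-binding protein, rose by 0.60 and 0.42. THBS1 was called on 2 of 7 probe sets, averaged 0.18 over them and gave 0.032 on plain names, where its call was lost. Beside the falls of FN1 and VIM, then, this list held genes of both directions.

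Of 18 further transcription factors linked to the transition 2 rose and 2 fell (3 and 1 with spike-in scaling). HMGA2, a chromatin protein, rose by 0.71 on 1 of 9 probe sets and lost its call with their mean (0.097). Of the helix-loop-helix inhibitors ID3 was higher by 0.43, ID1 was lower by 0.28 and ID2, at 0.046 (limma adjusted p = 0.735), did not pass, the call of ID1 being lost with spike-in scaling (-0.16). The homeobox gene SIX2 fell by 0.41 on 1 of 2 probe sets, and its mean over both was -0.27. TWIST2, the close relative of TWIST1, gave -0.019 at a mean level of 4.54 and did not pass.

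Of 23 genes of TGF-beta, BMP and SMAD signalling, the pathway that induces SNAI and ZEB factors in many epithelia, 3 rose and 5 fell (6 and 2 with spike-in scaling). SKIL, a SMAD corepressor, fell by 0.70 and the coreceptor TGFBR3 by 0.60. SKIL was called on 3 of 5 probe sets, which ranged from -0.71 to 0.035, and its mean over them fell by 0.40. The ligand BMP4 rose by 0.62 and BAMBI, a decoy receptor, by 0.48. The ligands TGFB1, TGFB2 and TGFB3 did not pass, at -0.11, -0.076 and 0.046. Of 22 partners and stability factors of the SNAI and TWIST proteins 2 rose and 3 fell (8 and 2 with spike-in scaling). LATS2, a Hippo pathway kinase, fell by 0.64 and the ubiquitin ligase subunit FBXO11 by 0.38, and the demethylase KDM1A rose by 0.32. LATS2 was called on 3 of 4 probe sets, and its mean over them fell by 0.35. FBXO11 was called on 1 of 3 probe sets and lost its call with their mean (-0.0085). GSK3B, a kinase that marks SNAI1 for degradation, fell by 0.31 on its brightest probe set, but its 5 probe sets disagreed, with 2 called higher and 2 lower, and its call was lost with their mean (-0.076).

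**Figure D5:**
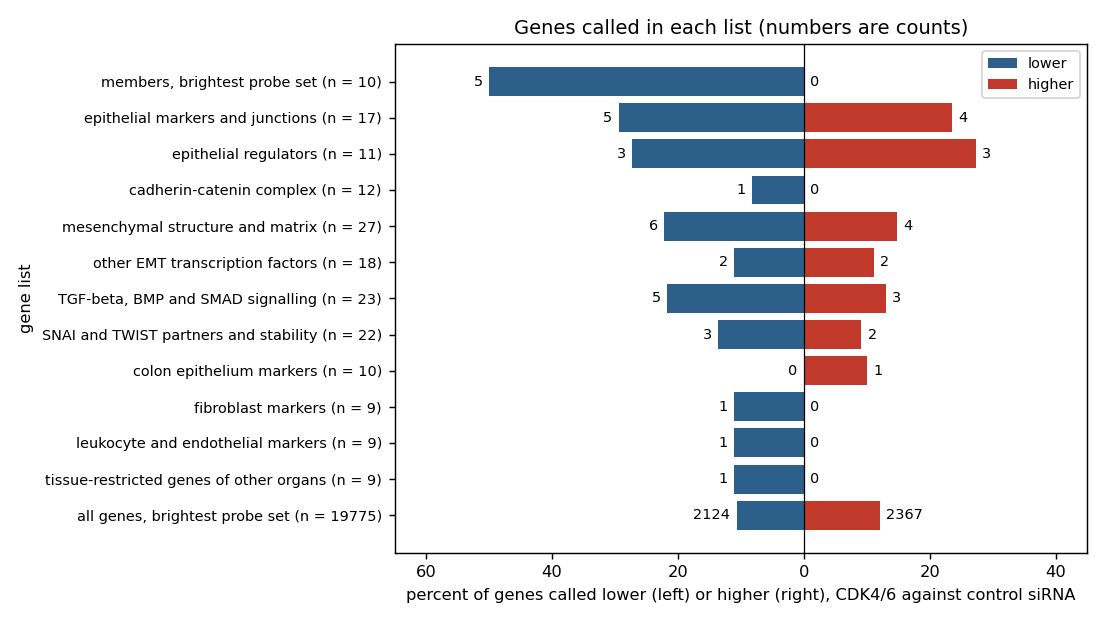
Percent of genes called lower (blue, to the left) and higher (red, to the right) in each list, CDK4/6 siRNA against control siRNA, with counts at the bar ends and all genes at the bottom. The members have 5 lower and 0 higher, while most other lists have bars on both sides.

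Of the colon epithelium markers 1 of 10 rose, the keratin KRT20, by 0.75 (limma adjusted p = 0.00195), and 0 fell, also at an unadjusted p under 0.05. LGR5, VIL1 and CEACAM5 did not pass, at -0.099, 0.064 and -0.049. Markers of other cells were listed at varied levels. The 9 fibroblast genes had means of 3.90 (LUM) to 7.84 (COL1A1, at the 80.3th percentile), with a median of 5.63, against 5.36 over all probe sets, and their summed log2 levels were 48.3 to 49.2 in CDK4/6 siRNA arrays and 48.7 to 49.7 in control arrays. Apart from COL1A1 none of the 9 passed (1 rose and 1 fell with spike-in scaling), and their summed levels overlapped between the groups. The 9 leukocyte and endothelial genes had means of 3.83 (PTPRC) to 6.26 (PECAM1), with a median of 5.18, and their sums were 44.8 to 46.1 in CDK4/6 siRNA arrays and 45.7 to 46.4 in control arrays, and 1 of the 9 fell, ITGAM, by 0.23 (adjusted p = 0.0472), a call lost with spike-in scaling. The arrays measure whole cultures, so fewer cells with a transcript and less of it in each cell cannot be told apart.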

How the data were processed

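The authors' deposited table gives log2 expression per probe set for 6 single-channel Affymetrix arrays, and RMA, which corrects background, equalises arrays and summarises probes, is named per the submitters' processing notes. No version or filter is stated there, and detection calls were not used. Because RMA makes the distributions of the arrays alike, it hides any change in the RNA content of cells. Of 54675 probe sets 62 were array controls and 54613 were tested. Gene names came from the platform annotation, and 41091 probe sets had 1 symbol, 1801 several and 11721 none.

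CDK4/6 siRNA was compared with control siRNA with limma 3.58.1 (lmFit, then eBayes) under R 4.3.3. Group was the single term, and p-values are two-sided. Precision is limited by the number of arrays, and an exact permutation test of 3 arrays against 3 could not give a p under 0.1. The fit was tested on simulated data. Every member probe set was reported, together with CDK4, CDK6 and up to 4 genes of each surrounding list with the smallest adjusted p, TWIST2, the TGFB ligands, KRT19, CLDN7, ID2, LUM, PTPRC, PECAM1, ITGAM, HBB, ALB, MYH7 and CDX2 being added after their values were seen. The members and lists were chosen with earlier results of these data known. Of the promoter motifs, only the E-box was chosen at the outset. Replicate numbers are shared between the groups, but the labels do not say that they pair arrays, so no block was used. Deviations of same-numbered arrays from their group means correlated at -0.026, -0.06 and -0.008. Between arrays of different number the correlations ran from -0.014 to 0.04. Values this small cannot exclude a shared batch. Alternatives covered the block, scaling, filters, probe set choice, variance model, leaving out each array, and a threshold of 0.01. Figures were drawn with matplotlib 3.10.9.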

Additional observations from a re-analysis of the deposited data

How the results depend on the processing

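Of the 9 member calls, 7 kept their direction and their side of the threshold under every alternative that could be run on them, and none of the 26 probe sets reversed a call. CDH1 201131_s_at lost its call with the mean of both CDH1 probe sets (-0.27, limma adjusted p = 0.145). That mean adds 201130_s_at, which has a mean level of 5.15 and an SD of 0.43 in the control arrays. ZEB1 212758_s_at lost its call without variance moderation, at the threshold of 0.01, with spike-in scaling (-0.29) and without CDK4/6 siRNA replicate 1 or 3. The cause of these losses was not tested. With each array left out in turn 8 to 9 member probe sets fell and 0 rose. With the replicate number as a block 9 fell and 0 rose, 4295 probe sets were higher and 3954 lower in all, and no member call changed; the numbers are not known to pair the samples.

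Counts moved where fewer features were tested, in part by construction. On plain-name probe sets 2 member probe sets fell (TWIST1 and ZEB1 212764_at), 2764 probe sets were higher and 2587 lower in all, and 9 surrounding genes were higher and 16 lower, against 19 and 27. With the brightest probe set per gene 5 members fell, and 2762 genes were higher and 2545 lower. With the mean of probe sets, on the same number of genes, 4 members fell, the call of CDH1 being lost, and 2558 genes were higher and 2184 lower. Spike-in scaling gave 10152 higher and 2200 lower probe sets, against 4841 and 4461 as deposited, 1 member probe set higher (VIM 1555938_x_at, 0.30), and 34 surrounding genes higher and 14 lower. Without variance moderation 2964 probe sets were higher and 2627 lower, and at a threshold of 0.01 there were 2855 and 2381. Signal over background was not available, and log2 changes of probe sets near background, such as those of ZEB2, understate changes in RNA.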
